A study of Homo sapiens with 12 samples.

Results

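The 33 genes described here encode proteins that carry a cell through mitosis. They were taken by symbol from the count tables of an RNA sequencing study of LNCaP cells, an androgen-sensitive human prostate cancer line, in which 60835 gene symbols were counted. The 12 libraries of poly(A) RNA came from 4 conditions with 3 biological replicates each, as the series' design text states: cells given control shRNA and cells given shRNA against FOXA1, and a separate set of cells given control shRNA and cells given shRNA against TRIM28. How many hairpins were used per gene, and how long after their delivery RNA was taken, is not given in the sources used here. FOXA1 is a transcription factor that opens chromatin for the androgen receptor in the luminal prostate. TRIM28 silences genes and repeats to which KRAB zinc finger proteins bring it. Of the 33 genes, 32 had enough counts to be tested. NUSAP1, a microtubule binder, was not tested, because it held between 0 and 4 counts in every library. On its strand the NUSAP1 gene overlaps OIP5-AS1, which held a mean of 2805 counts.

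Mitosis is driven by CDK1, a kinase that is active only when a cyclin is bound to it. Polo-like and Aurora kinases then build the spindle, kinetochores tie chromosomes to microtubules, and the checkpoint kinases hold back the anaphase-promoting complex until every chromosome is attached. Most of these genes are transcribed late in the cell cycle, in G2 and M. The DREAM complex holds them silent in resting cells, and the MuvB core later joins MYBL2 and FOXM1 to switch them on. MuvB binds a promoter element called the CHR, and the factor NF-Y binds CCAAT boxes nearby. The RNA level of these genes in a cell population is widely read as a measure of how many cells are dividing. In bulk RNA, fewer dividing cells and less RNA per dividing cell cannot be told apart.

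RefSeq promoters (GRCh38.p14, 250 bases before to 50 bases after each start) were matched by symbol for 27 of the 33 genes. A CHR was searched as TTTGAA or TTCGAA and a CCAAT box as CCAAT, both on either strand. A CHR was found in 20 of the 27 genes, or 74.1%, against 19.5% of all 27305 symbols with a promoter. A CCAAT box was found in 21 genes, or 77.8%, against 39.7% of all symbols, and 16 genes (59.3%) held both, against 7.85%. The bases directly before a listed start are shown for 6 genes. CDK1 has the highest RNA level of the set. AURKB, CDC20 and CENPF fell in the TRIM28 knockdown, and MKI67 and KIF11 did not pass the test there. CDK1 and AURKB have 2 listed starts, and the one with the fewest bases in annotated exons (GENCODE release 29) is shown. The other CDK1 start has CHRs at -69, -13 and 10 and CCAAT boxes at -78 and -46. The CHR of CENPF lies at 41, after the start and outside the stretch shown. Capitals mark CHR and CCAAT letters, read 5′ to 3′ in the direction of the gene. On the other strand they read TTCAAA or TTCGAA and ATTGG, and in MKI67 the last CHR runs into an ATTGG. All are in GRCh38.p14: CDK1 chr10:60778166-60778330 on the plus strand, AURKB chr17:8210250-8210414 on the minus strand, CDC20 chr1:43358816-43358980 on the plus strand, CENPF chr1:214603030-214603194 on the plus strand, MKI67 chr10:128126424-128126588 on the minus strand and KIF11 chr10:92592965-92593129 on the plus strand.
CDK1: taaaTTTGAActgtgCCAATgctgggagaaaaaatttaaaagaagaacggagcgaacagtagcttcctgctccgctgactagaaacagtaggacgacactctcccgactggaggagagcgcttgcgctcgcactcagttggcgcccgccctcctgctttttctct
AURKB: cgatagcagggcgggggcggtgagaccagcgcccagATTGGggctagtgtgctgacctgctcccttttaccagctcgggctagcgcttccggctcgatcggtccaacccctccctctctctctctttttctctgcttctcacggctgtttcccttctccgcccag
CDC20: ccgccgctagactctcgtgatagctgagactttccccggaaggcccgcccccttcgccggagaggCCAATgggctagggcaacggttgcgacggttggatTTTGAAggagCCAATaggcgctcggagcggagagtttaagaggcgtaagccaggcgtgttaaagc
CENPF: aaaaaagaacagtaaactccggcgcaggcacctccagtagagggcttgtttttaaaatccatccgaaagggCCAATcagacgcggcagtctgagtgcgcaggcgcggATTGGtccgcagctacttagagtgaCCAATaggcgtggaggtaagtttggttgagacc
MKI67: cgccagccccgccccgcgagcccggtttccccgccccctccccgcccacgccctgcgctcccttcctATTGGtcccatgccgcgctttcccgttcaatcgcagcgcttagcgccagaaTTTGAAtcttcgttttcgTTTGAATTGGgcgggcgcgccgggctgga
KIF11: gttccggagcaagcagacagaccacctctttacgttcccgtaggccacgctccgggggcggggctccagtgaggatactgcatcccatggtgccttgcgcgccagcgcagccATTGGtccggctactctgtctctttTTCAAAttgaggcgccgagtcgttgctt
Among the genes that fell in the TRIM28 knockdown, 12 of 16 with a promoter entry held a CHR (75%), against 7 of 10 (70%) among those not called. A CCAAT box was present in 15 of the 16 (93.8%) and in 5 of the 10 (50%). These shares describe the letters in the window only and were not tested. The split rests on the calls with all libraries. Without TRIM28 knockdown replicate 3 all 32 tested genes were called lower, which leaves no second group.

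Levels per gene length were compared in the 6 control libraries on the deposited FPKM scale. CDK1 was the highest at 405 ± 12.7 FPKM (SD, n = 6), followed by PTTG1, the securin that restrains separase, at 180 ± 8.98 FPKM and CCNB1, the cyclin B1 partner of CDK1, at 151.5 ± 5.63 FPKM. The lowest of the 32 tested genes were KIF23, a midzone kinesin, at 13.6 ± 0.697 FPKM and CDC25C, the phosphatase that activates CDK1, at 13.4 ± 0.692 FPKM. The top 3 ranges did not overlap, whereas those of KIF23 (12.5 to 14.4 FPKM) and CDC25C (12.1 to 14.0 FPKM) did. Together the 33 genes took 0.580% ± 0.0065 of all counts in the FOXA1 controls (SD, n = 3) and 0.567% ± 0.018 in the TRIM28 controls. After FOXA1 knockdown their share was 0.491% ± 0.0050. After TRIM28 knockdown it was 0.299%, 0.323% and 0.507% in replicates 1, 2 and 3, so that replicate 3 lay nearer to the controls than to the other two.

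Library totals ranged from 12256092 to 15152890 counts. FOXA1 stood at between 28.6% and 29.2% of control in the libraries of its knockdown, and TRIM28 at 32.0%, 28.5% and 14.0% in replicates 1, 2 and 3 of its own. FOXA1 was at 47.3%, 43.0% and 70.1% of control in the TRIM28 knockdown, so the 2 knockdowns share a fall in FOXA1. Among the TRIM28 knockdown libraries, replicate 3 stood apart. Its counts differed from those of replicates 1 and 2 by a chi-square of 25.8 and 23.3 per degree of freedom, against 4.04 between replicates 1 and 2 and between 3.12 and 6.31 in the other groups. It had the lowest TRIM28 level, and the 8 stromal markers summed to 448 CPM there, against 29.2 to 42.4 CPM in the other 11 libraries. Of the 8 markers 7 were highest there by CPM and none was at 0. For 2 of these the margin was narrow: PDGFRB had 34 counts against 31 in FOXA1 control replicate 1. FAP had 4 counts, as in TRIM28 control replicate 3. THY1 was not highest there. COL3A1, a fibrillar collagen, had 2320 counts in it against 24 to 82 in the other TRIM28 libraries. Endothelial markers (4 genes) summed to 15.8 CPM against 4.36 to 11.6 CPM, and leukocyte markers (8 genes) to 2.12 CPM against 1.08 to 3.69 CPM. Of the 4 endothelial genes 2 were highest in replicate 3, KDR (62 counts) and CDH5 (11 counts). VWF and PECAM1 were lower there than in knockdown replicates 1 and 2. The 9 luminal prostate markers that define LNCaP were detected in every library and summed to 2623 CPM in replicate 3, against 2584 to 4313 CPM in the others. The part of these differences in the results below was not tested. Results of the TRIM28 knockdown are therefore also given without that library, by gene or by group.

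After TRIM28 knockdown the mitosis genes were lower as a group, and 19 of the 32 tested genes fell. The largest falls were in AURKB, the kinase of the chromosomal passenger complex (log2 fold change -1.06, SE 0.10), and NUF2, an outer kinetochore subunit (-1.01, SE 0.15). No gene rose, and all 32 had a negative log2 fold change, with a median of -0.70 and a range from -1.06 in AURKB to -0.12 in KIF23. Among all 14981 genes tested, 13.3% were called lower and 13.3% higher, and the median was 0.00. A call here means an adjusted p under 0.05 by edgeR's quasi-likelihood test with Benjamini-Hochberg adjustment over all genes. The number called rested on single libraries. It was 9, 7 and 9 without control replicates 1, 2 and 3, 12 and 9 without knockdown replicates 1 and 2, and 32 without knockdown replicate 3. FOXM1, CCNB1, AURKB, CDC20, UBE2C, CENPA and NUF2 were called in all of these fits, and those 7 genes were also called under each of the other settings tried. PTTG1 and ECT2 lost their calls only without control replicate 2. The calls of CDK1, CCNB2 and TOP2A held only without knockdown replicate 1 or without knockdown replicate 3. Those of CDC25C, PLK1, BIRC5, CENPF, DLGAP5, HMMR and KIF20A held only without knockdown replicate 3.

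**Figure D1:**
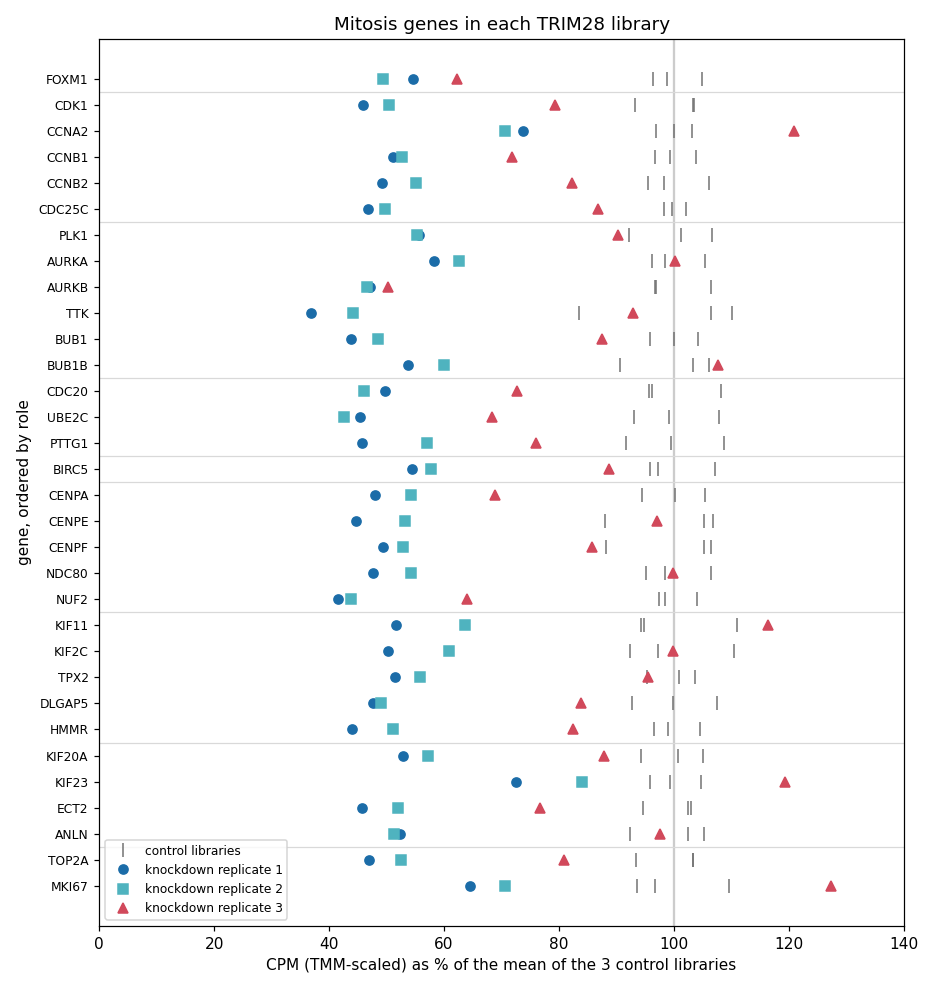
Each row is a mitosis gene, ordered by role. The horizontal axis gives the TMM-scaled CPM as a percentage of the mean of the 3 TRIM28 controls, with ticks for controls and symbols for the 3 knockdown libraries. Replicates 1 and 2 lie left of the controls in all 32 rows, and replicate 3 (triangles) lies to the right of replicates 1 and 2 in each row.

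The 3 knockdown libraries did not fall alike. The median gene stood at 49.3% of the control mean in replicate 1, at 53.0% in replicate 2 and at 87.1% in replicate 3. In replicates 1 and 2 all 32 genes lay below all 3 controls, with ranges from 36.9% (TTK) to 73.7% (CCNA2) and from 42.5% (UBE2C) to 83.9% (KIF23). In replicate 3, 20 genes lay below all controls, 7 within their range and 5 above them, from 50.2% (AURKB) to 127.4% (MKI67). Replicate 3 was the highest of the 3 knockdown libraries for 32 of 32 genes, which was so for 40.4% of all genes tested. Groups did not overlap for the 20 genes, against 22.1% of all genes tested that were lower without overlap. For the other 12 genes, replicates 1 and 2 lay below all controls and replicate 3 did not, which was so for 9.15% of all genes. Replicate 3 thus held the deepest loss of TRIM28, the highest stromal markers and the smallest loss of mitosis RNA.

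FOXM1, the transcription factor that drives many of the other genes, was measured at 118.0, 128.5 and 121.1 CPM in the controls and at 66.9, 60.5 and 76.2 CPM in knockdown replicates 1, 2 and 3. It fell in each library without overlap (log2 fold change -0.85, SE 0.10, adjusted p = 0.000644), and by -0.95 on the log2 scale without replicate 3. FOXM1 (ENSG00000111206, GRCh38 chr12:2857680-2877174, minus strand) overlaps RHNO1 on the other strand, which held 31.9% of its mean count, and whether counting used strand is not given in the sources used here. Its level in replicate 3 was 62.2% of control, where AURKB alone lay lower among the mitosis genes.

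Of the 5 genes of the cyclin and CDK1 engine, 4 fell. CDK1 (ENSG00000170312, GRCh38 chr10:60778331-60794852, plus strand) stood at 767.5, 850.8 and 851.6 CPM in the controls and at 377.9, 414.5 and 653.1 CPM in the knockdown. All knockdown libraries were below the controls, and replicate 3 lay between the others and the controls (log2 fold change -0.77, SE 0.19, adjusted p = 0.0211). Cyclin B1, CCNB1, was at 295.9, 317.8 and 304.0 CPM in the controls and at 156.5, 161.1 and 219.6 CPM in the knockdown (log2 fold change -0.77, SE 0.12, adjusted p = 0.00233). CCNB2, the second B-type cyclin, fell by 0.69 and CDC25C by 0.71 on the log2 scale, with adjusted p = 0.0193 and 0.0341. The CDC25C call is uncertain, since FAM53C on the other strand held 564% of its mean count. CCNA2, the cyclin of S phase and G2, did not pass. It stood at 66.8, 68.9 and 71.1 CPM in the controls and at 50.8, 48.6 and 83.3 CPM in the knockdown. Replicates 1 and 2 were below all controls and replicate 3 above them (log2 fold change -0.18, SE 0.19, adjusted p = 0.514). Without replicate 3 its log2 fold change was -0.48 (SE 0.08, adjusted p = 9.08e-06), against -1.06 in CDK1, -0.95 in CCNB1 and CCNB2 and -1.06 in CDC25C. EXOSC9, on the other strand from CCNA2, held 59.3% of its mean count.

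Of the 6 mitotic kinases, AURKB and PLK1 fell. AURKB (ENSG00000178999, GRCh38 chr17:8204733-8210600, minus strand) stood at 42.2, 46.5 and 42.3 CPM in the controls and at 20.5, 20.4 and 21.9 CPM in the knockdown. It was the gene whose 3 knockdown libraries lay closest together, at 47.0%, 46.7% and 50.2% of control (adjusted p = 0.000249). PLK1, the polo-like kinase of mitotic entry and spindle assembly, stood at 71.1, 74.8 and 64.7 CPM in the controls and at 39.1, 38.8 and 63.3 CPM in the knockdown (log2 fold change -0.58, SE 0.18, adjusted p = 0.0428). The groups did not overlap, by a narrow margin in replicate 3. AURKA, the Aurora kinase of the spindle poles, was at 106.1, 116.3 and 108.7 CPM in the controls and at 64.3, 69.1 and 110.5 CPM in the knockdown (log2 fold change -0.44, adjusted p = 0.117). The 2 Aurora kinases were furthest apart in replicate 3, where AURKA stood at 100.1% and AURKB at 50.2% of control. The checkpoint kinases TTK, BUB1 and BUB1B had log2 fold changes of -0.79, -0.74 and -0.44 that did not pass (adjusted p = 0.136, 0.059 and 0.2235). TTK stood at 64.3, 81.8 and 84.7 CPM in the controls and at 28.4, 34.0 and 71.5 CPM in the knockdown. Without replicate 3 TTK had the most negative value of the set, -1.31 (SE 0.11, adjusted p = 7.70e-10), and BUB1 and BUB1B stood at -1.12 and -0.82. AURKB was at -1.10, PLK1 at -0.86 and AURKA at -0.73 in that fit.

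All 3 genes of mitotic exit fell. CDC20, which activates the anaphase-promoting complex, stood at 140.9, 159.5 and 141.7 CPM in the controls and at 73.2, 67.9 and 107.2 CPM in the knockdown. Every knockdown library was below the controls (log2 fold change -0.83, SE 0.16, adjusted p = 0.0056). UBE2C, the ubiquitin-conjugating enzyme that works with the complex, stood at 77.2, 84.0 and 72.5 CPM in the controls and at 35.3, 33.1 and 53.3 CPM in the knockdown (log2 fold change -0.94, SE 0.17, adjusted p = 0.00407). PTTG1 stood at 177.7, 210.9 and 193.0 CPM in the controls and at 88.7, 110.4 and 147.4 CPM in the knockdown (log2 fold change -0.75, SE 0.17, adjusted p = 0.0116). Its call was lost only without control replicate 2 (adjusted p = 0.0554). Without knockdown replicate 3 the 3 genes fell by 1.07, 1.19 and 0.97 on the log2 scale.

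Survivin, BIRC5, which works with AURKB in the chromosomal passenger complex, fell from 156.9, 175.4 and 159.2 CPM to 89.2, 94.5 and 145.4 CPM (log2 fold change -0.58, SE 0.17, adjusted p = 0.0365). Replicate 3 was below the controls but close to them, and without it the log2 fold change was -0.84. Of the 5 centromere and kinetochore genes, CENPA, CENPF and NUF2 fell. CENPA, the histone variant that marks centromeres, stood at 25.7, 28.7 and 27.3 CPM in the controls and at 13.1, 14.8 and 18.8 CPM in the knockdown (log2 fold change -0.81, SE 0.15, adjusted p = 0.00357). SLC35F6, on the same strand, overlaps CENPA and held 271% of its mean count. NUF2 stood at 77.2, 81.5 and 76.4 CPM in the controls and at 32.5, 34.3 and 50.2 CPM in the knockdown (adjusted p = 0.00185). Its partner in the NDC80 complex, NDC80, stood at 84.5, 91.4 and 81.7 CPM in the controls and at 40.9, 46.6 and 85.7 CPM in the knockdown (log2 fold change -0.57, SE 0.26, adjusted p = 0.139). NUF2 was at 41.5%, 43.8% and 64.0% of control in replicates 1, 2 and 3, and NDC80 at 47.6%, 54.3% and 99.8%, and the difference between these 2 subunits of one complex was not tested. CENPF, a large kinetochore-associated protein, had a log2 fold change of -0.68 (adjusted p = 0.0443), and CENPE, a kinetochore kinesin, one of -0.62 (adjusted p = 0.137). Without replicate 3 the 5 genes lay between -1.24 (NUF2) and -0.97 (CENPA, CENPF).

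Of the 5 tested spindle genes, DLGAP5 and HMMR fell. HMMR, a spindle assembly factor, stood at 148.1, 160.3 and 151.8 CPM in the controls and at 67.6, 78.4 and 126.4 CPM in the knockdown (log2 fold change -0.76, SE 0.21, adjusted p = 0.0324). DLGAP5, which stabilises kinetochore fibres, had a log2 fold change of -0.73 (adjusted p = 0.0356). The groups of both genes did not overlap. KIF11, the kinesin that pushes spindle poles apart, stood at 90.7, 106.8 and 91.1 CPM in the controls and at 49.7, 61.2 and 112.0 CPM in the knockdown. It was above all controls in replicate 3 and below them in the others (log2 fold change -0.37, SE 0.28, adjusted p = 0.361). KIF2C, a microtubule depolymerase, and TPX2, the activator of AURKA, had log2 fold changes of -0.51 and -0.57 that did not pass (adjusted p = 0.145 and 0.092). Without replicate 3 these 5 genes lay between -1.08 (HMMR) and -0.80 (KIF11).

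Of the 4 genes of the midzone and of cytokinesis, ECT2 and KIF20A fell. ECT2, the exchange factor that activates RHOA at the cleavage furrow, stood at 321.7, 350.2 and 348.6 CPM in the controls and at 155.2, 177.1 and 260.6 CPM in the knockdown (log2 fold change -0.78, SE 0.17, adjusted p = 0.0117). Its call was lost only without control replicate 2 (adjusted p = 0.0519). KIF20A, a midzone kinesin, had a log2 fold change of -0.60 (adjusted p = 0.0355), and its gene overlaps BRD8 and CDC23 on the other strand, with 73.1% and 61.5% of its mean count. ANLN, which scaffolds the contractile ring, had a log2 fold change of -0.58 and did not pass (adjusted p = 0.121). KIF23 stood at 51.5, 54.3 and 49.7 CPM in the controls and at 37.6, 43.5 and 61.9 CPM in the knockdown. It changed least of the set (log2 fold change -0.12, SE 0.16, adjusted p = 0.6135), and also least without replicate 3 (-0.36, SE 0.09, adjusted p = 0.00138). In that fit ECT2 was at -1.04, ANLN at -0.95 and KIF20A at -0.87.

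Of the 2 chromosome genes, TOP2A fell and MKI67 did not pass. TOP2A, the topoisomerase that untangles sister chromatids, stood at 476.5, 527.1 and 527.4 CPM in the controls and at 239.6, 268.0 and 412.6 CPM in the knockdown (log2 fold change -0.735, SE 0.19, adjusted p = 0.022). MKI67, which encodes the proliferation marker Ki-67, stood at 232.4, 240.1 and 272.1 CPM in the controls and at 160.1, 175.2 and 316.3 CPM in the knockdown. Its log2 fold change was -0.19 (SE 0.25, adjusted p = 0.60). Replicate 3 exceeded every control, at 127.4% of their mean, while replicates 1 and 2 were below every control. Without replicate 3 MKI67 had a log2 fold change of -0.57 (SE 0.07, adjusted p = 1.88e-08) and TOP2A one of -1.01. KIF23, CCNA2 and MKI67 were the 3 genes closest to control in that fit, as they were with all libraries.

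Leaving out replicate 3 raised the number of mitosis genes called lower from 19 to 32 of 32. Their median log2 fold change went from -0.70 to -0.97, and the range ran from -1.31 (TTK) to -0.36 (KIF23). Adjusted p values in that fit ranged from 2.11e-15 (CDK1) to 0.00138 (KIF23). Replicate 3 was the highest knockdown library for 32 of 32 genes, so leaving it out was bound to make their changes more negative. The added calls and smaller p values are therefore no separate support for the fall. Calls rose among all genes as well, with 23.5% of 15475 genes called lower. That fit has 2 knockdown libraries against 3 controls. In it the order of the genes changed: TTK and BUB1, which did not pass with all libraries, became 2 of the 4 most negative values.

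**Figure D2:**
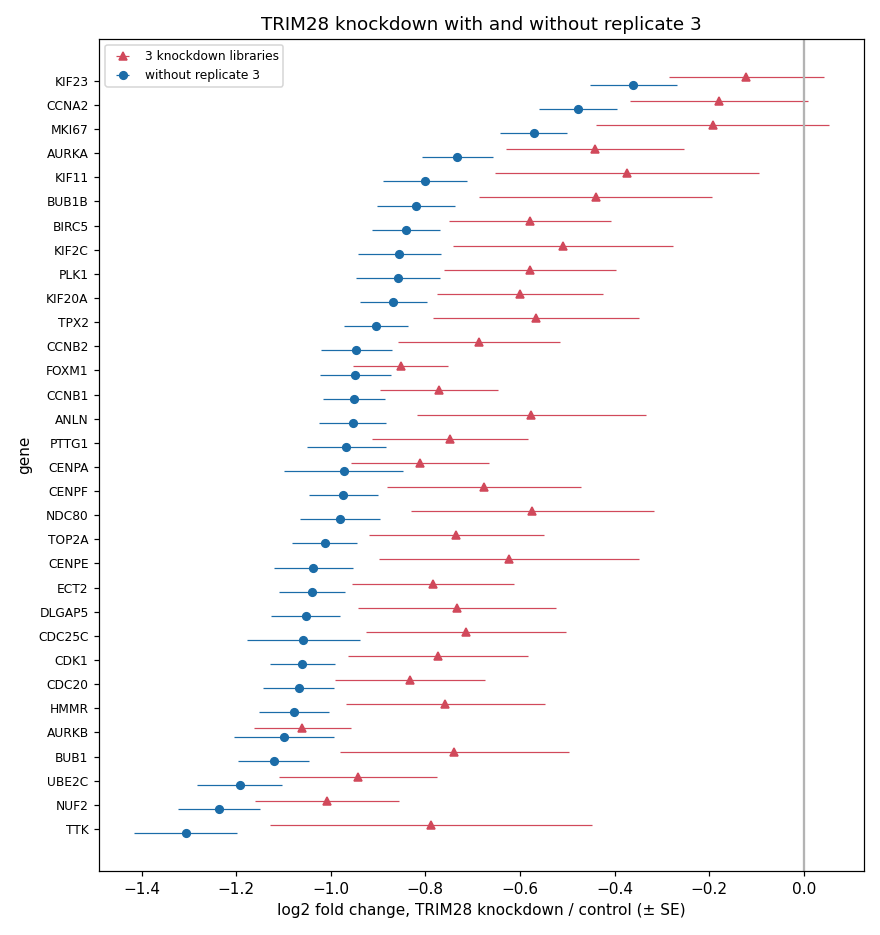
Log2 fold changes of each mitosis gene in the TRIM28 knockdown, with standard errors, from the fit to all 3 knockdown libraries (triangles) and from the fit without replicate 3 (circles). The circles lie to the left of the triangles for all 32 genes, and their bars are shorter for most of them.

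After FOXA1 knockdown the changes were smaller and went both ways. Of the 32 tested genes 20 fell, 3 rose and 9 did not pass, against 26.3% of all 14953 genes called lower and 26.1% called higher (52.4% in either direction). The largest fall was in FOXM1 and the rises were in CCNA2, KIF23 and MKI67. The median log2 fold change was -0.20, beside -0.02 over all genes, and the range ran from -0.54 (FOXM1) to 0.23 (CCNA2). The libraries lay close together: the median gene was at 86.7%, 86.2% and 85.9% of control in replicates 1, 2 and 3. All 3 knockdown libraries were below all controls for 21 genes and above them for 3, while 29.2% of all genes were lower and 29.2% higher without overlap. With the spread estimated over all 12 libraries only 5 genes were called lower and none higher, and against a minimum fold change of 1.2 the counts were 8 and 0. FOXM1, PTTG1 and ECT2 were called under every alternative. Single libraries decided 4 calls. PLK1 was lost without control replicate 1 or knockdown replicates 1 or 2 (adjusted p up to 0.167), and AURKA without control replicate 2 or any knockdown library (up to 0.233). KIF2C was lost without control replicate 2 or knockdown replicates 2 or 3 (up to 0.125), and KIF23 without control replicate 2 or knockdown replicate 3 (up to 0.137).

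**Figure D3:**
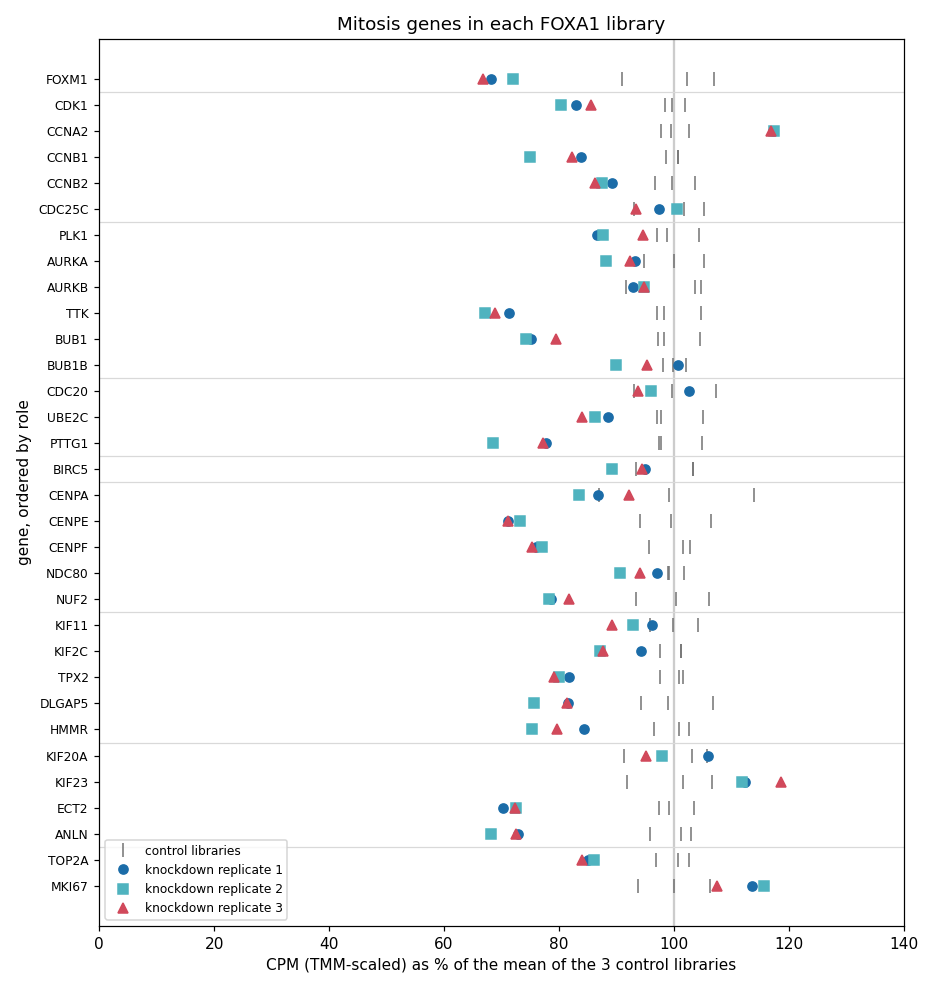
Each row is a mitosis gene, ordered by role, and the horizontal axis gives the TMM-scaled CPM as a percentage of the mean of the 3 FOXA1 controls, with ticks for controls and symbols for the 3 knockdown libraries. The knockdown symbols lie close together, between 66.8% and 118.6% of control, and only CCNA2, KIF23 and MKI67 lie to the right of all controls in all 3 libraries.

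FOXM1 stood at 130.9, 125.1 and 111.3 CPM in the FOXA1 controls and at 83.3, 88.2 and 81.8 CPM in the knockdown, with no overlap (log2 fold change -0.54, SE 0.06, adjusted p = 1.56e-08). In the cyclin and CDK1 engine, CDK1 fell by 0.27, CCNB1 by 0.32 and CCNB2 by 0.19 on the log2 scale (adjusted p = 4.84e-06, 2.76e-06 and 0.0034), while CDC25C was at -0.04 (adjusted p = 0.699). CCNA2 rose from 68.3, 70.4 and 67.1 CPM to 80.4, 80.6 and 80.2 CPM (log2 fold change 0.23, SE 0.06, adjusted p = 0.00188). Every knockdown library was above every control, and the A-type and B-type cyclins moved in opposite directions in this fit. Against a minimum fold change of 1.2 the calls of CCNA2, CCNB1 and CCNB2 were lost. With all 12 libraries in one fit those of CCNA2 and CCNB2 were lost. EXOSC9, on the other strand from CCNA2, held 59.3% of its mean count, and whether counting used strand is not given.

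Among the kinases TTK fell most, from 80.2, 86.5 and 81.3 CPM to 59.0, 55.5 and 57.0 CPM (log2 fold change -0.53, SE 0.06, adjusted p = 2.85e-08). BUB1 fell by 0.39, PLK1 by 0.16 and AURKA by 0.13 on the log2 scale (adjusted p = 6.34e-07, 0.0387 and 0.0473). AURKB was not called, at 41.7, 41.3 and 36.5 CPM in the controls and 37.0, 37.8 and 37.8 CPM in the knockdown (log2 fold change -0.09, adjusted p = 0.345). BUB1B was at -0.07 (adjusted p = 0.3245). Among the exit genes PTTG1 fell by 0.42 and UBE2C by 0.21 (adjusted p = 1.27e-07 and 0.00455). CDC20 was not called, at 153.7, 142.8 and 133.3 CPM in the controls and 146.9, 137.5 and 134.2 CPM in the knockdown, which overlap (log2 fold change -0.04, adjusted p = 0.596).

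The centromere genes CENPE, CENPF and NUF2 fell by 0.48, 0.39 and 0.33 on the log2 scale (adjusted p = 9.43e-09, 1.16e-08 and 0.00011). CENPE stood at 179.0, 169.2 and 191.7 CPM in the controls and at 128.0, 131.6 and 127.8 CPM in the knockdown, well apart. CENPA, NDC80 and BIRC5 were not called, at -0.195, -0.09 and -0.11. Of the spindle genes TPX2, DLGAP5, HMMR and KIF2C fell, by 0.32, 0.33, 0.325 and 0.16, and KIF11 was not called at -0.11 (adjusted p = 0.11).

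ECT2 and ANLN fell the most of the cytokinesis genes. ECT2 stood at 335.4, 349.6 and 329.3 CPM in the controls and at 237.5, 245.2 and 244.6 CPM in the knockdown (log2 fold change -0.48, SE 0.05, adjusted p = 5.40e-10), and ANLN fell by 0.49 (adjusted p = 2.10e-09). KIF23 rose from 51.7, 46.8 and 54.3 CPM to 57.2, 57.0 and 60.4 CPM (log2 fold change 0.19, SE 0.07, adjusted p = 0.0214), while the other midzone kinesin, KIF20A, was at -0.01 (adjusted p = 0.942). TOP2A fell by 0.23 (adjusted p = 4.86e-05). MKI67 rose from 265.8, 249.9 and 234.2 CPM to 283.7, 289.1 and 268.8 CPM (log2 fold change 0.17, SE 0.05, adjusted p = 0.00665). Its highest control was only just below its lowest knockdown library. The proliferation marker thus rose in libraries in which CDK1, CCNB1 and FOXM1 fell.

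Set side by side, 13 genes fell in both knockdowns, each against its own controls: FOXM1, CDK1, CCNB1, CCNB2, PLK1, UBE2C, PTTG1, CENPF, NUF2, DLGAP5, HMMR, ECT2 and TOP2A. They were 40.6% of the 32, beside 10.1% of the 14498 genes tested in both. Among the 13, FOXM1 alone kept its call under every alternative in both knockdowns. A further 6 (18.8%, beside 3.15% of all genes) fell in the TRIM28 knockdown and were not called in the FOXA1 knockdown, and 7 (21.9%, beside 16.6%) the reverse. The difference between the effects was tested over all 12 libraries. It was more negative in the TRIM28 knockdown for 6 of 32 genes and for none more positive, against 5.98% and 4.59% of all 15921 genes tested. AURKB differed most (difference of log2 fold changes -0.98, SE 0.12, adjusted p = 4.00e-05), followed by CDC20 (-0.805, SE 0.19, adjusted p = 0.0142) and UBE2C (-0.74, SE 0.19, adjusted p = 0.0189). NUF2 (-0.69), CENPA (-0.63) and CCNB1 (-0.47) had adjusted p = 0.0157, 0.0319 and 0.0445. AURKB, CDC20 and CENPA were not called after FOXA1 knockdown. AURKB, CDC20 and NUF2 kept their calls without any single library. UBE2C lost its call without TRIM28 control replicate 2 (adjusted p = 0.0514), and CENPA and CCNB1 lost theirs without at least 9 of the 12 libraries in turn. Without TRIM28 knockdown replicate 3 the difference was called for all 32 genes, with a median of -0.74, beside 12.7% of all genes. That library was the highest of its group for all 32 genes, so leaving it out was bound to move the difference this way. Without that library the difference ran from -1.04 in CDC20 to -0.42 in FOXM1, the smallest in that fit. With all 12 libraries FOXM1 stood at -0.33, and the difference was smallest in ANLN (-0.095) and CENPE (-0.15). None of these 3 was called with all libraries.

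**Figure D4:**
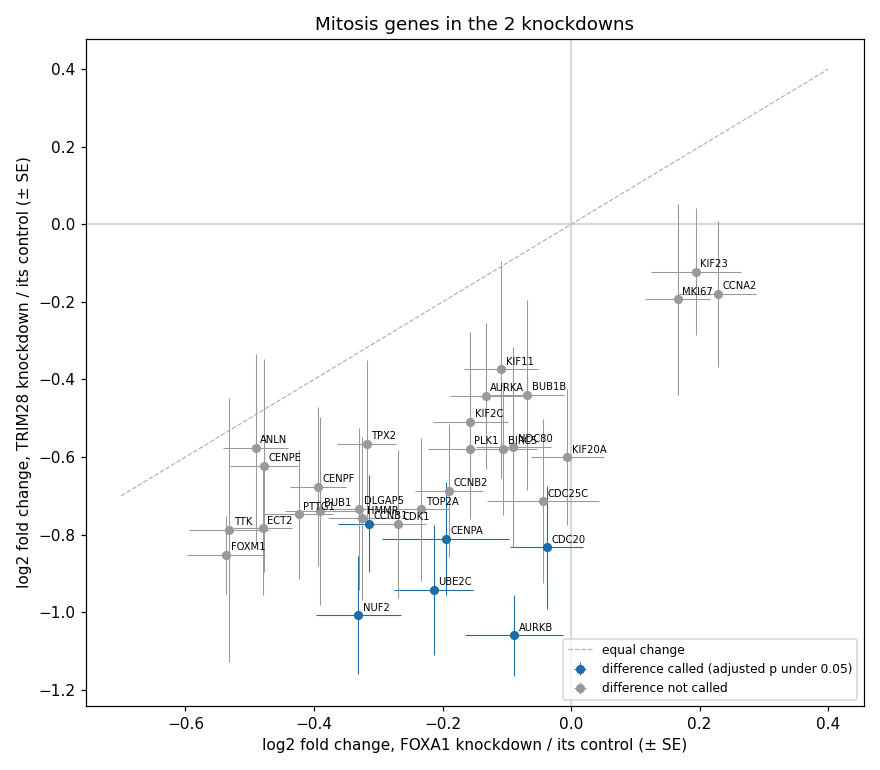
Each point is a mitosis gene. The horizontal axis gives its log2 fold change in the FOXA1 knockdown and the vertical axis that in the TRIM28 knockdown, with standard errors. All 32 points lie below 0 on the vertical axis, and CCNA2, KIF23 and MKI67 lie to the right of 0 on the horizontal axis and highest on the vertical one.

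The control groups were compared as a background. No mitosis gene and none of 14839 genes was called between the TRIM28 and the FOXA1 controls by edgeR, and DESeq2 called 0 as well. Of the mitosis genes 2 had an unadjusted p under 0.05, CCNB1 and BUB1B. The log2 differences ranged from -0.15 (TTK) to 0.12 (NUF2). In the TRIM28 controls 28 of the 32 genes were lower and 4 higher, all uncalled. Their median was -0.044, beside 0.003 over all genes, so most shared 1 direction between controls as well.

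The genes that work beside these were read from lists of pathway partners. Of 150 tested genes in 10 lists, 50 fell and 5 rose after TRIM28 knockdown, with a median of -0.36, beside 13.3% of all genes lower and 13.3% higher. Without replicate 3 the counts were 112 and 8 of 151, beside 23.5% and 21.5% of all genes. Condensin, the complex that compacts chromosomes, had 5 of 8 subunit genes lower, led by NCAPH (log2 fold change -0.99, adjusted p = 0.0132), and 8 of 8 without replicate 3. Of 27 other kinetochore genes 10 fell, and 22 without replicate 3. CENPM, of the inner kinetochore, stood at 33.9, 32.3 and 30.9 CPM in the controls and at 14.5, 14.2 and 14.3 CPM in the knockdown (log2 fold change -1.18, adjusted p = 0.000207). In CENPM, replicate 3 lay between the other knockdown libraries. Spindle and centrosome genes fell in 12 of 25 cases, and in 23 without replicate 3, including PLK4, the kinase of centriole duplication (-0.865 with all libraries, adjusted p = 0.0142). Of the MuvB, DREAM and MYB genes, MYBL2, LIN9 and NFYC fell and NFYA rose, out of 16, and without replicate 3 the count was 10 lower and 2 higher of 17. MYBL2 stood at 277.9, 306.8 and 289.5 CPM in the controls and at 152.6, 137.0 and 228.3 CPM in the knockdown (log2 fold change -0.76, adjusted p = 0.0136). Of the cohesin and separase genes 0 of 14 fell and WAPL, which releases cohesin, rose by 0.51 (adjusted p = 0.0144), while without replicate 3 the count was 8 lower and 1 higher. Of 13 entry brakes and switches 4 fell and 2 rose, and 7 and 2 without replicate 3. Among them PKMYT1, a brake on CDK1, fell by 1.28 (adjusted p = 0.00268). S phase genes, a list set beside the mitotic ones, fell in 14 of 32 cases and rose in 1, and in 29 and 1 without replicate 3. CDT1, which licenses replication origins, fell by 1.44 and E2F1, a driver of S phase genes, by 1.24 (adjusted p = 0.000345 and 0.000551).

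After FOXA1 knockdown the same 10 lists were mixed, with 61 of 151 tested genes lower and 31 higher, a median of -0.09 and the background of 26.3% and 26.1% given above. All 8 condensin genes fell, from NCAPD3 (log2 fold change -0.60, adjusted p = 2.96e-10) to the smallest at -0.19. Checkpoint partners fell in 6 of 9 cases and rose in none, led by KNTC1 (-0.47, adjusted p = 2.02e-08), and spindle and centrosome genes in 14 of 25, with 2 higher. Entry brakes and switches went the other way, with 6 of 13 higher and 1 lower. CDC25A, a CDK-activating phosphatase, rose from 24.2, 28.3 and 24.9 CPM to 76.1, 67.0 and 67.7 CPM (log2 fold change 1.44, SE 0.08, adjusted p = 2.72e-15). WEE1, the kinase that inhibits CDK1, rose by 0.57 and CCNF, an F-box protein named cyclin F, by 0.735 (adjusted p = 4.92e-09 and 2.46e-08). The list thus held rises in genes that act on CDK1 in opposite ways. S phase genes were split, with 13 lower and 10 higher of 32. RRM2, a subunit of ribonucleotide reductase, rose by 0.87 and FEN1, the flap endonuclease, by 0.91 (adjusted p = 2.52e-15 and 9.69e-12), while MCM7, of the replicative helicase, fell by 0.48 (adjusted p = 5.26e-10).

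**Figure D5:**
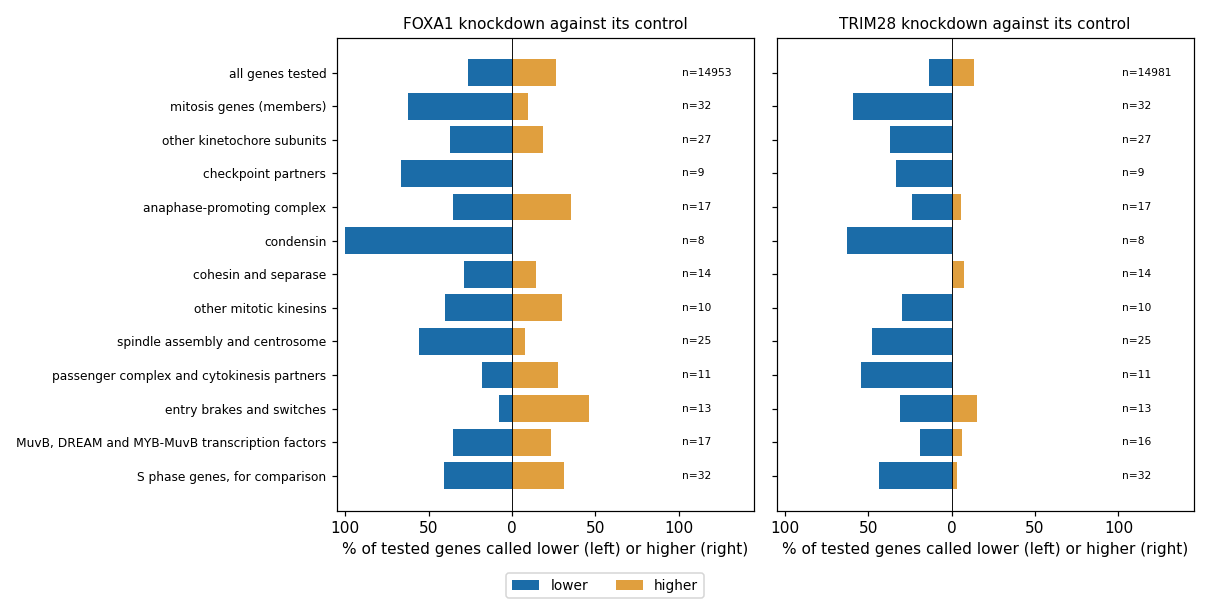
Bars give the percentage of tested genes called lower (left) or higher (right) in each list, for the FOXA1 knockdown (left panel) and the TRIM28 knockdown (right panel), with the number of genes tested at the right edge. The top bars give all genes, at 26.3% lower and 26.1% higher after FOXA1 knockdown and 13.3% and 13.3% after TRIM28 knockdown.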

How the data were processed

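The deposited files hold unnormalised counts (2 tables, each a knockdown with its control) and, in another table, FPKM for the 12 libraries. Per the submitters' processing notes the build is GRCh38 (hg38). Aligner, counter, strand setting and annotation: not given in the sources used here. For 14245 of 14245 genes checked, deposited FPKM was proportional to count over library total across the 12 libraries, within a relative tolerance of 0.001. Genes with very few counts in any library were left out of this check. Gene lengths themselves were not checked. Each symbol was kept once (62710 lines, 60835 symbols), and no value column was without a sample.

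Counts were fitted with edgeR 4.0.16 in R 4.3.3 (TMM scaling, filterByExpr with a minimum count of 10 and a minimum total of 15, robust quasi-likelihood F-tests, two-sided, Benjamini-Hochberg adjustment over all genes, threshold 0.05). Each knockdown was fitted with its own controls, and the difference of effects over all 12 libraries. In a test on simulated counts, false calls made up a larger share of calls than the threshold, and many of the smaller changes were missed. CPM values are TMM-scaled within a comparison. Control groups were taken from titles and knockdowns from treatment labels, since the genotype labels of some replicates name other gene numbers and the titles of the knockdown libraries read SH control. The batch label is 1 throughout, which leaves no batch to compare. P-values weigh each group difference against the spread between these replicates, which edgeR estimates with the help of all genes.

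The mitosis genes, the pathway lists and the marker lists were chosen with earlier results of these data known. All listed mitosis genes are reported, and of other lists at most 4 called genes with the smallest p. Leaving out TRIM28 knockdown replicate 3 for the pathway lists was added after the data had been seen. Other alternatives were RLE or library-size scaling, DESeq2 1.42.0, limma 3.58.1 on log2(FPKM + 0.1), other filters, a minimum fold of 1.2, a replicate block, all libraries in one fit, and each library left out. Promoters come from RefSeq.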

Additional observations from a re-analysis of the deposited data

Results flagged for a closer look

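The effects of the knockdowns differed by a direct test of the difference for 6 mitosis genes, each more negative in the TRIM28 knockdown. The differences of log2 fold changes (TRIM28 minus FOXA1) were -0.983 in AURKB, -0.805 in CDC20, -0.74 in UBE2C, -0.688 in NUF2, -0.629 in CENPA and -0.467 in CCNB1. In AURKB the 3 TRIM28 knockdown libraries lay at 47.0%, 46.7% and 50.2% of control and the 3 FOXA1 knockdown libraries at 92.9%, 94.8% and 94.8%. In CDC20 they lay at 49.7%, 46.1% and 72.7% and at 102.6%, 96.0% and 93.7%.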

How the results depend on the processing

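Same-numbered control and knockdown libraries deviated together by correlations of -0.025, 0.016 and 0.106 for FOXA1 and 0.022, -0.075 and 0.013 for TRIM28. Differently numbered libraries gave -0.124 to 0.108 for FOXA1 and -0.094 to 0.123 for TRIM28. Since these ranges overlap, the values cannot decide whether the replicate numbers pair the libraries. With the replicate block 19 mitosis genes were called lower and 3 higher after FOXA1 knockdown, 25 and 0 after TRIM28 knockdown, 6 and 0 for the difference and 0 between the controls. After FOXA1 knockdown a minimum fold of 1.2 gave 8 lower and 0 higher, and all 12 libraries in one fit 5 and 0. After TRIM28 knockdown a minimum fold of 1.2 gave 9 lower, and leaving out 1 library gave 7 to 32. For the difference no filter on low counts gave 14 lower, and leaving out 1 library gave 3 to 32. The cause of these moves was not tested. Library-size scaling alone moved the share of rises among all calls in the TRIM28 knockdown from 49.9% to 63.4% and the median of all genes from 0.002 to 0.076, with 18 mitosis genes lower and none higher. Signs turned only in genes that were not called. After FOXA1 knockdown CDC20 was at 0.016 without control replicate 1 and 0.001 without knockdown replicate 3, in a leave-one-out range of -0.089 to 0.016. KIF20A was at 0.002 with RLE, 0.008 with library size, 0.003 with DESeq2, 0.01 with FPKM and 0.017, 0.019, 0.038 and 0.039 in 4 leave-one-out fits, in a range of -0.069 to 0.039. After TRIM28 knockdown KIF23 was at 0.021 without knockdown replicate 1, in a range of -0.361 to 0.021. For the difference, CENPE was at 0.049 and ANLN at 0.05 without TRIM28 knockdown replicate 1, and ANLN at 0.064 without replicate 2, in ranges of -0.571 to 0.049 and -0.475 to 0.064. Every tested mitosis gene had at least 174 counts in every library, and NUSAP1 had too few to test.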
